A study of Mus musculus with 26 samples.

Results

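The genes of the tumour necrosis factor (TNF) ligand and receptor superfamilies were followed across fractions of EML cells, a mouse blood progenitor line named for its erythroid, myeloid and lymphoid potential. A gene was included when its symbol began with Tnfsf or Tnfrsf and a digit, or when it was Tnf, Lta, Ltb, Ltbr, Fas, Fasl, Cd27, Cd40 or Cd70. The mouse reference held 41 such genes, and 39 of them were found among the 32481 genes or unnamed probes of the array. Tnfsf13 and the non-coding Tnfsf13os were not matched. Each gene was represented by 1 probe, the one with the highest mean signal, and 9 of the 39 genes had more than 1 probe.

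The study asked how a multipotent line commits to a lineage, and it profiled sorted fractions of EML cells grown with stem cell factor on 26 single-colour Agilent arrays in 8 groups and 3 array sets. The first set held 3 arrays each of Sca1hi cells, CR Sca1lo cells and EryCP cells, fractions told apart by surface markers that include Sca1, CD34 and cKit. The second set held 3 arrays of a repeat of the EryCP fraction and 3 of Ediff cells, which are the CD34-negative, cKit-negative cells that arose when the EryCP fraction was differentiated with erythropoietin (Epo). The third set held 4 arrays of CD34- CD103- cells, 4 of CD34+ CD103- cells and 3 of CD34- CD103- cells after Epo-driven erythroid differentiation. The labels give the EML line as the origin of every group, but the sample titles name the third set EMLe2 and the others EML without explaining the difference. They name no genetic change, and the Ediff group was selected on surface markers as well as exposed to Epo. The labels do not say that replicates came from separate cultures, so every p-value below measures the spread between these samples only, which may be technical.

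Ligands of the superfamily are mostly trimeric proteins that sit in the membrane or are shed from it, and each binds 1 or a few receptors. Receptors fall broadly into those with a cytoplasmic death domain, which can recruit caspase-8 through adaptors, those that bind TRAF adaptors and signal mainly to NF-kB and stress kinases, and decoys that bind a ligand without signalling. In blood cells the family is best known for inflammation, for the survival and costimulation of lymphocytes and for limiting progenitor and erythroid growth.

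Levels are given as the log2 of the array's processed signal minus the 75th percentile of that array, so 0 is the level of a fairly bright probe and each unit is a doubling. Levels of different genes come from different probes and are not set against each other. Of the 39 genes, 26 were well above background on all 26 arrays and none was below it on every array. Sca1hi cells had 32 genes well above background on all of their arrays, CR Sca1lo cells 34, EryCP cells 34, Ediff cells 30, the EryCP repeat 34, CD34- CD103- cells 37, CD34+ CD103- cells 34 and CD34- CD103- Epo cells 36. In Ediff cells Ltbr, Tnfsf4, Tnfsf10, Tnfsf12 and Tnfsf18 were above background on no array. In the EryCP repeat the genes above background on no array were Ltbr, Tnfsf11, Tnfsf18, Tnfrsf13c and Tnfrsf19. Ltbr, the lymphotoxin beta receptor, and Tnfsf11, the RANK ligand, were above background in no complete group and were never tested, whereas 33 genes were tested in all 3 sets. By role, 9 of 15 ligands, 4 of 5 death domain receptors, 5 of 8 costimulatory receptors, 2 of 3 receptors of BAFF and APRIL, 1 of 3 decoy receptors and 2 of 5 other receptors differed in at least 1 comparison within a set. That is 23 of the 37 genes tested in any set (62.2%), against 54.8% of all 27949 genes tested.

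**Figure D1:**
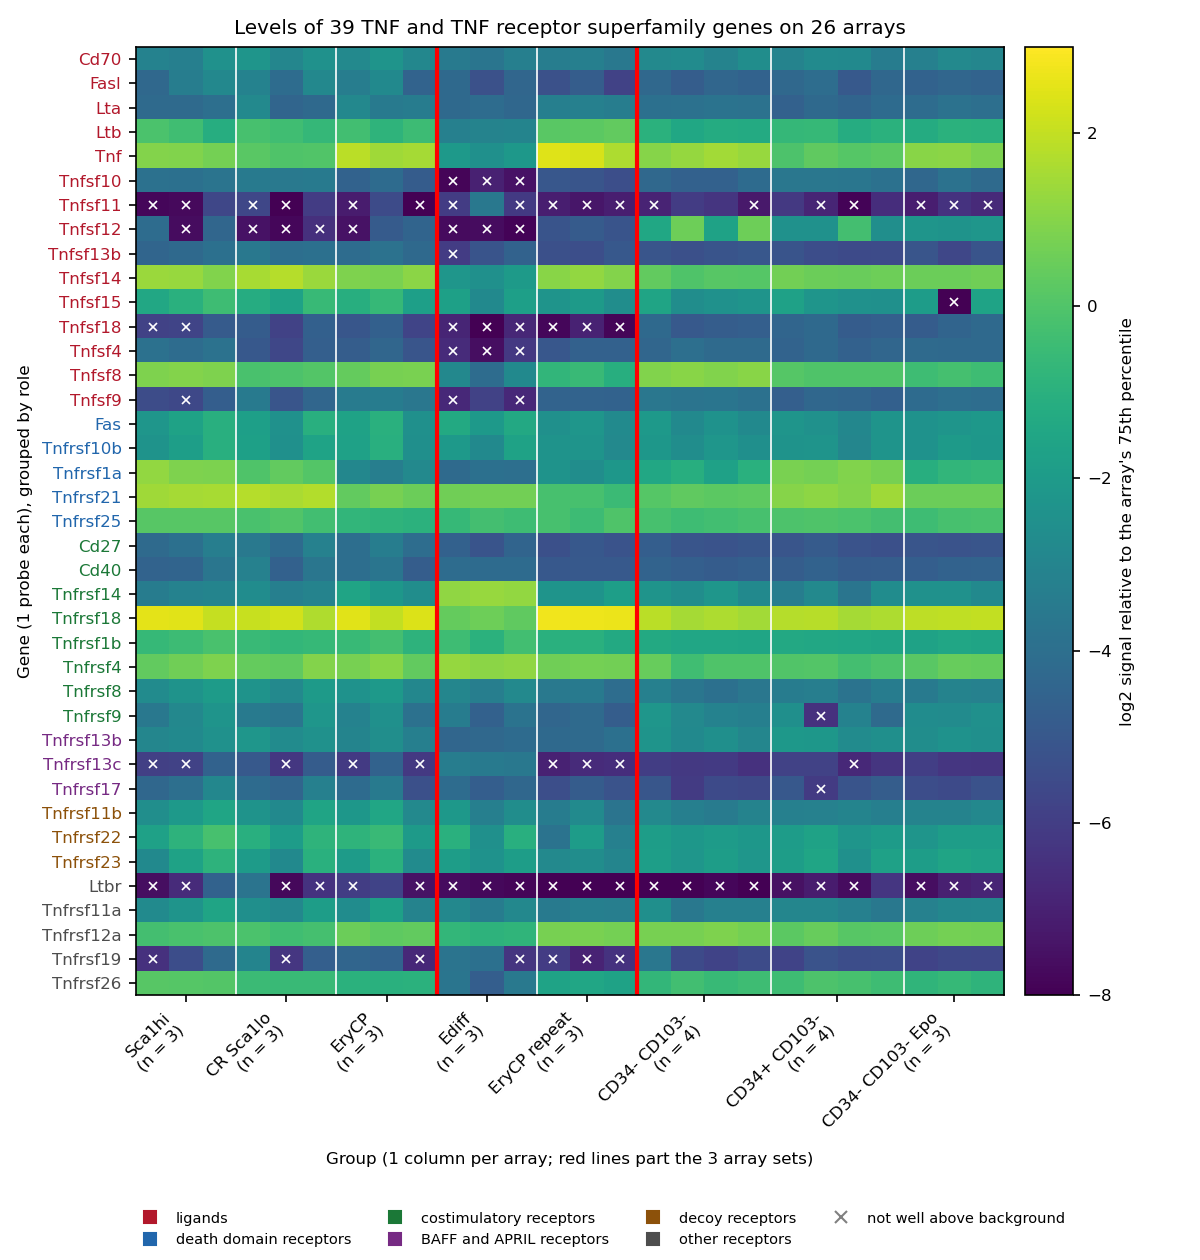
Heat map of the log2 signal relative to the array's 75th percentile for the 39 genes (rows, coloured by role) on the 26 arrays (columns, by group, with red lines between the 3 array sets), with crosses where the probe was not well above background. The Ediff columns are dark for Tnfsf10, Tnfsf12 and Tnfsf4 and bright for Tnfrsf14, and Tnfrsf1a is brightest in Sca1hi cells and in CD34+ CD103- cells of its set.

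Across the series the 75th percentile signal ranged from 424.3 to 1249 and the share of probes well above background from 76% to 93.8%. Arrays of a group correlated at 0.968 to 0.9932, no 2 arrays were identical and no spot was saturated. Transcripts of the sorting markers followed the labels in part. Ly6a (Sca1) was at 4.1 to 4.18 in Sca1hi cells and at -1.49 to -1.32 in CR Sca1lo cells, and Cd34 was well above background on none of the 3 Ediff arrays. In CD34- CD103- cells, however, Cd34 transcript remained well above background on all 4 arrays, at 4.59 to 5.25 against 6.72 to 7.04 in CD34+ CD103- cells. Kit, which encodes cKit, was well above background on all 3 arrays of the cKit-negative Ediff cells, at 1.19 to 1.51 against 4.55 to 4.66 in the EryCP repeat. Itgae, which encodes CD103, was well above background on every array of the CD103- groups, at -1.93 to -0.02. Summed levels of T cell, B cell, NK cell and macrophage markers lay between 0.107 and 3.87 in units of the 75th percentile in every group. All 6 matched T cell markers were well above background on every array. Macrophage and dendritic cell markers summed to 1.9 to 2.35 in Ediff cells and to 0.807 to 0.909 in the EryCP repeat, and their part in the results was not tested. The array set can differ in any level, so all comparisons were made within a set. In these bulk samples, fewer cells of a type and less RNA per cell cannot be told apart.

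The ligands Tnf, Ltb, Tnfsf14 and Tnfsf8 were 5.54- to 20.6-fold lower in Ediff cells than in the EryCP repeat they were compared with, and the changes among receptors went both ways. Of the 35 genes tested, 9 were higher and 13 lower in Ediff cells (limma, Benjamini-Hochberg adjusted p under 0.05 over all genes tested). Differences were common here, since 56.6% of all 24669 genes tested passed, 39.6% higher and 17% lower, and 62.9% of the tested family genes is near that background. The median difference was 0.22 for the family and 0.46 for all genes. Among the 13 ligands tested, 9 were lower, none was higher, and the median was -2.09. That count and median include 3 ligands read below background in Ediff cells, and with a normexp background correction fitted without spots of outlying background 5 ligands were lower, 2 were higher and the median was 0.02.

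Tnf, the founding inflammatory cytokine of the family, was at 2.46, 2.33 and 1.63 in the EryCP repeat and at -2.04, -2.5 and -2.14 in Ediff cells. The groups lay far apart on all 6 arrays. The difference was -4.37 ± 0.25 (SE, n = 3 and 3), 20.6-fold, with an adjusted p of 5.04e-05, and it was -4.55 and -4.42 within the 2 slides.

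Ltb encodes lymphotoxin beta, the membrane anchor of the lymphotoxin heterotrimer. It was at 0.18, 0.24 and 0.34 in the EryCP repeat and at -3.19, -3.1 and -3.05 in Ediff cells, with little spread in either group. It fell by 3.37 ± 0.09, 10.3-fold (adjusted p = 3.76e-06). Its partner Lta, lymphotoxin alpha, fell less, from -3.24, -3.2 and -3.34 to -4.24, -4.09 and -4.33, a difference of -0.96 ± 0.1 (adjusted p = 0.00061). Lta, Tnf and Ltb are neighbours on chromosome 17, with the start of Lta 3.34 kb from that of Tnf and the start of Tnf 7.5 kb from that of Ltb.

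Tnfsf14 (LIGHT), which binds the receptor encoded by Tnfrsf14 (HVEM) and the lymphotoxin beta receptor, was at 1.06, 1.21 and 0.95 in the EryCP repeat and at -2.23, -2.5 and -2 in Ediff cells. The 3 Ediff arrays were all low, and the fall was 9.95-fold (-3.31 ± 0.15, adjusted p = 2.2e-05). Tnfrsf14 moved the other way, from -2.31, -2.34 and -1.83 to 1.19, 1.31 and 1.23. All 3 Ediff arrays were above all EryCP repeat arrays, a rise of 10.6-fold (3.41 ± 0.16, adjusted p = 2.2e-05).

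Tnfrsf13c, the BAFF receptor of B cells, was not well above background on any EryCP repeat array, where its probe read -6.94, -6.66 and -6.54, and was at -3.35, -3.5 and -3.6 in Ediff cells. Its Ediff level was 7.6-fold above the EryCP repeat floor, as defined below (adjusted p = 1.66e-05 for the measured difference). The measured difference, 3.23, and its p rest on EryCP repeat readings below background, and the gene entered the test through the Ediff arrays. For this floor the dim group is placed, array by array, at the weakest signal of any spot still flagged as above background, unless the probe itself read higher. A fold above the floor is not a guaranteed minimum. Normexp fitted without spots of outlying background gave a smaller difference for Tnfrsf13c, printed below. B cell markers, of which 5 of 5 were well above background on all arrays of both groups, summed to 0.534 to 0.769 in Ediff cells and 0.406 to 0.555 in the EryCP repeat, and their part in the result was not tested.

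Tnfsf8 (CD30 ligand) was at -0.74, -0.54 and -1.09 in the EryCP repeat and at -2.88, -4.11 and -2.8 in Ediff cells, where replicate 2 was lowest. The groups did not overlap, and the fall was 5.54-fold (-2.47 ± 0.38, adjusted p = 0.00275). Tnfsf10 (TRAIL), Tnfsf12 (TWEAK) and Tnfsf4 (OX40 ligand) were above background on all 3 EryCP repeat arrays and on no Ediff array. Tnfsf10 was at -5.01, -5.11 and -5.34 in the EryCP repeat, 1.66-fold above the Ediff floor (adjusted p = 0.000511). Tnfsf12 was at -5.16, -4.84 and -5.13, 1.79-fold above the floor (adjusted p = 2.49e-05). Tnfsf4 was at -5, -4.57 and -4.59, 2.24-fold above the floor (adjusted p = 0.00497). Their probes read -7.84 to -6.98, -7.9 to -7.65 and -7.6 to -6.17 in Ediff cells, and all 3 genes were dim even where they were detected. The p-values of these 3 rest on Ediff readings below background, and the genes entered the test through the EryCP repeat. Tnfsf9 (4-1BB ligand) was at -4.51, -4.49 and -4.53 in the EryCP repeat and was detected on 1 of 3 Ediff arrays, at -5.82, with -6.75 and -6.74 on the others, a difference of -1.92 ± 0.26 (adjusted p = 0.00172). The calls of Tnfsf10, Tnfsf12, Tnfsf4 and Tnfsf9 depended on how background was subtracted. With a normexp correction fitted without spots of outlying background, their differences were 0.06, 0.02, 0.04 and 0, and none of the 4 passed. Under that correction Tnf (-3.72), Tnfsf14 (-2.75), Ltb (-2.51), Tnfsf8 (-1.54) and Lta (-0.17) were still lower and Fasl (0.47) and Tnfsf13b (0.38) were called higher.

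The death domain receptors did not move together. Tnfrsf1a (TNFR1), the main receptor of Tnf, was at -2.35, -2.59 and -2.18 in the EryCP repeat and at -4.18, -3.93 and -4 in Ediff cells, and fell 3.17-fold (-1.66 ± 0.14, adjusted p = 0.000227). Tnfrsf21 (DR6) rose from -0.2, -0.18 and -0.5 to 0.63, 0.64 and 0.65, by 0.94 ± 0.11 (adjusted p = 0.00108). Fas rose from -2.46, -2.24 and -2.73 to -1.3, -2.05 and -1.35, by 0.91 ± 0.24 (adjusted p = 0.0224), with Ediff replicate 2 nearest to the other group. Without Ediff replicate 1, Ediff replicate 3, EryCP repeat replicate 1 or EryCP repeat replicate 3 the Fas difference was 0.77 to 0.91 and missed the threshold (adjusted p = 0.0672 to 0.0766). Tnfrsf10b, the mouse TRAIL receptor, and Tnfrsf25 (DR3) were not called. Second probes, well above background on all 6 arrays, gave 1.35 for Tnfrsf10b where the probe used gave 0.30, and 0.96 for Tnfrsf25 where the probe used gave -0.22.

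Among receptors that bind TRAF adaptors, Tnfrsf18 (GITR) was at 2.75, 2.73 and 2.69 in the EryCP repeat and at 0.41, 0.56 and 0.33 in Ediff cells, and fell 4.9-fold (-2.29 ± 0.10, adjusted p = 1.49e-05). Its close neighbour on chromosome 4, Tnfrsf4 (OX40), whose start lies 12.6 kb away, went from 0.62, 0.69 and 0.64 to 1.26, 1.1 and 1.18, a difference of 0.53 ± 0.09 (adjusted p = 0.00379). Tnfrsf26, a mouse receptor of the chromosome 7 cluster with Tnfrsf22 and Tnfrsf23, was grouped with the other receptors and not with those that bind TRAF adaptors. It went from -1.64, -1.48 and -1.68 to -3.74, -4.72 and -3.55, 5.29-fold lower (adjusted p = 0.00136). Tnfrsf12a (Fn14), the receptor of TWEAK, went from 0.74, 0.8 and 0.7 to -0.72, -0.91 and -0.81, 2.95-fold lower (adjusted p = 5.46e-05). For each of these receptors, named because they were called, the Ediff and EryCP repeat arrays did not overlap. With normexp fitted without spots of outlying background the differences of Tnfrsf26, Tnfrsf1a and Tnfrsf13c were smaller, at -1.07, -0.63 and 1.08, and still passed.

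The other rises were under 2-fold. Cd40, a costimulatory receptor of antigen-presenting cells, went from -4.96, -4.93 and -4.91 to -4.1, -4.15 and -4.16, by 0.80 ± 0.08 (adjusted p = 0.000493). Tnfrsf23, a decoy TRAIL receptor, went from -2.83, -2.61 and -2.99 to -1.88, -2.39 and -1.87, by 0.77 ± 0.19 (adjusted p = 0.0157). In both genes every Ediff array lay above every EryCP repeat array. Tnfrsf17 (BCMA), a receptor of plasma cells, went from -5.36, -4.8 and -5.19 to -4.11, -4.71 and -4.33, by 0.73 ± 0.21 (adjusted p = 0.029). Tnfrsf8 (CD30) went from -3.56, -3.45 and -4.07 to -2.94, -3.29 and -2.82, by 0.67 ± 0.21 (adjusted p = 0.0356). Gaps between the groups were narrow for these receptors. The rises of Tnfrsf23, Tnfrsf17 and Tnfrsf8 were lost without any 1 of the 4 arrays that also decided Fas, at 0.68 to 0.76, 0.6 to 0.71 and 0.49 to 0.74 (adjusted p = 0.0546 to 0.111). The slides of this set were unbalanced. Slide 1 held Ediff replicates 1 and 3 with EryCP repeat replicate 2, and slide 2 held the others. Slide means held 47.8% to 59% of the variance of these 3 genes and Fas. With the slide as a block the family median was 0.03, that of all genes was 0.36, and all 22 calls were kept. All the small rises depended on the scaling. When arrays were scaled on their 9 spike-in control probes instead of the 75th percentile, the median of all genes moved from 0.46 to -0.49, and Cd40, Fas, Tnfrsf17, Tnfrsf21, Tnfrsf23, Tnfrsf4 and Tnfrsf8 had differences between -0.42 and -0.01. Cd40, Tnfrsf17 and Tnfrsf8 also missed the threshold with the deposited value table, at 0.08 to 0.15. Tnfrsf14 (2.46) and Tnfrsf13c (2.29) were the 2 family genes called higher under that scaling, against 18 lower. Over all genes tested, 70% of calls were higher as reported, 58.7% with quantile normalization and 8.51% with spike-in scaling, and the family split of 9 higher and 13 lower became 7 and 14 with quantile normalization. With normexp fitted without spots of outlying background the split turned to 17 higher and 9 lower, and 79.8% of calls over all genes were higher. Without Ediff replicate 2 it was 16 higher and 13 lower, with 73.9% over all genes. Normexp fitted on all spots ended all 22 family calls. That correction left almost no spread among dim spots on several arrays and left 234 calls over all genes.

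**Figure D2:**
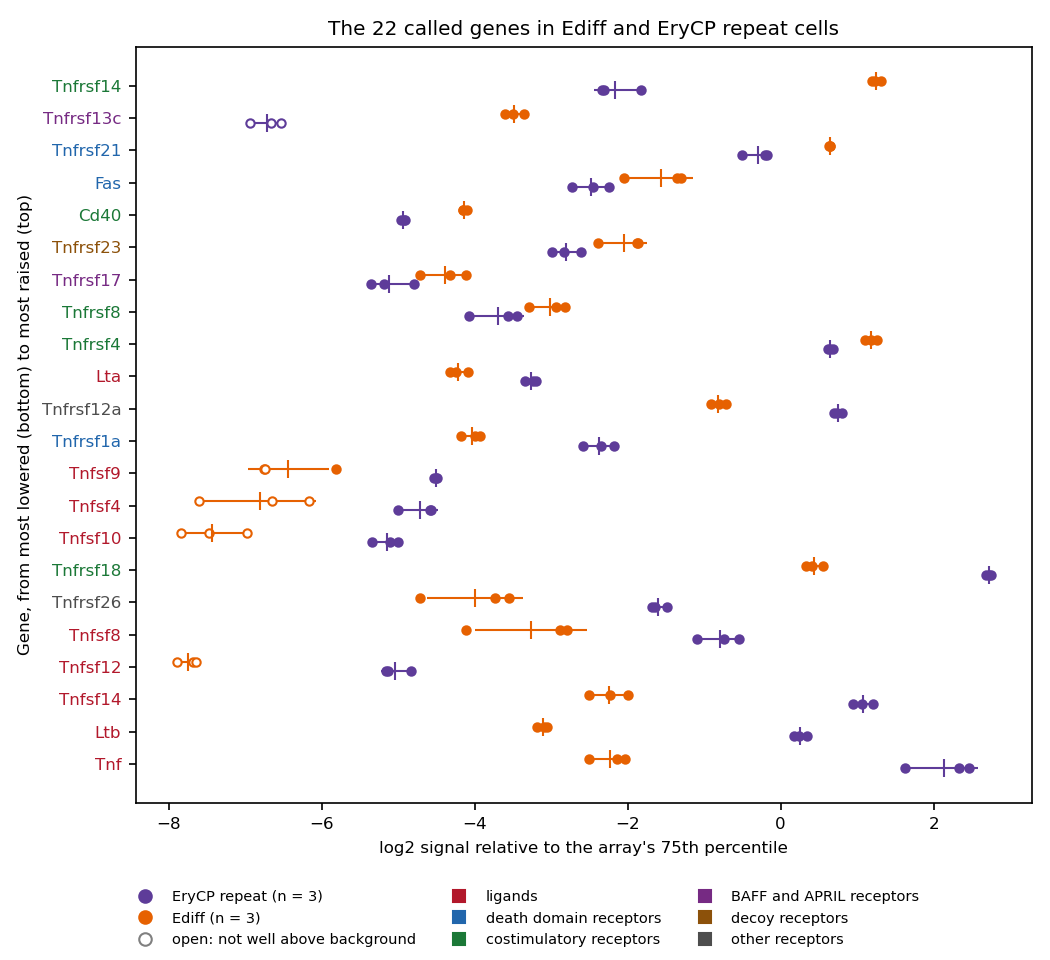
Log2 signal relative to the array's 75th percentile (horizontal axis) of the 22 called genes (vertical axis, from most lowered to most raised) in EryCP repeat cells and Ediff cells, 3 arrays each, with means and SD, and open points where a probe was not well above background. The difference is -4.37 for Tnf and 3.41 for Tnfrsf14. The genes shown were chosen because they were called on these same arrays, so a gap between the groups is largely set by that choice.

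Marker transcript levels also differed between the 2 groups. Summed erythroid marker levels (9 of 10 markers matched) were 1820 to 2020 in Ediff cells against 133 to 208 in the EryCP repeat. Mast cell and basophil markers (9 of 10 matched) summed to 11.9 to 15 in Ediff cells and to 828 to 956 in the EryCP repeat, with 8 of the 9 well above background on all Ediff arrays and none below it on every one. Progenitor markers summed to 9.04 to 12.3 in Ediff cells and to at most 123 in the EryCP repeat. Their part in the family's differences was not tested.

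The promoters of Tnf, Ltb, Tnfsf14, Tnfrsf14, Tnfrsf13c and Tnfrsf1a, all called in Ediff cells, are shown because the family is known both as an activator and as a target of NF-kB. RefSeq sequence of GRCm38.p6, from 250 bases before to 50 bases after a listed start site, was at hand for 30 of the 39 genes, with 34 promoters in all. Each is printed 5′ to 3′ on the gene's strand. Capitals mark matches on either strand to a form of the NF-kB consensus or to CCNCACCC, a motif bound by KLF factors. The NF-kB form was GG, a purine, NN, YYY and CC in that order, where N is any base and Y a pyrimidine. Other forms of the consensus were not searched.
Tnf, chr17:35201958-35202257 (- strand): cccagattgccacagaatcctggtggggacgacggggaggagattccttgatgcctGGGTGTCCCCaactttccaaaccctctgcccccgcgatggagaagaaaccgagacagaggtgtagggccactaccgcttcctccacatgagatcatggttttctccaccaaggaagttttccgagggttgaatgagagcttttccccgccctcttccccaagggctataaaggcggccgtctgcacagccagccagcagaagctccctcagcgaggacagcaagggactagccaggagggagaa
Ltb, chr17:35194257-35194556 (+ strand): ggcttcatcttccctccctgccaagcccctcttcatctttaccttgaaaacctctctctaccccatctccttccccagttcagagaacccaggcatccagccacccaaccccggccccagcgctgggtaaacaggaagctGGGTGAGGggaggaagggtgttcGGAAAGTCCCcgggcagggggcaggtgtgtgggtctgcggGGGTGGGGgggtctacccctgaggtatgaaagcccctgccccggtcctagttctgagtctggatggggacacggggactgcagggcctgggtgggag
Tnfsf14, chr17:57194132-57194431 (- strand): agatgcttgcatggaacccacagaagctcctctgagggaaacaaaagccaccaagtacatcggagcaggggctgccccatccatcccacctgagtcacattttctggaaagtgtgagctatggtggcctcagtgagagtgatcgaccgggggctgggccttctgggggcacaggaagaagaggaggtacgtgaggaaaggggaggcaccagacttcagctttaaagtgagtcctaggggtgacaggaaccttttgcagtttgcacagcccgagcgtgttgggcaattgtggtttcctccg
Tnfrsf14, chr4:154928028-154928327 (- strand): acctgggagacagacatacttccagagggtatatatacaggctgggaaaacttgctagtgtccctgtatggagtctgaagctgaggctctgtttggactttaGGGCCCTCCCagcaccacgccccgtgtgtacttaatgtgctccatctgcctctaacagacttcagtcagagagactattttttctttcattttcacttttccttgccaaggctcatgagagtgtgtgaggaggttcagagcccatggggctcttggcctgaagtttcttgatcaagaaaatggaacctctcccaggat
Tnfrsf13c, chr15:82224331-82224630 (- strand): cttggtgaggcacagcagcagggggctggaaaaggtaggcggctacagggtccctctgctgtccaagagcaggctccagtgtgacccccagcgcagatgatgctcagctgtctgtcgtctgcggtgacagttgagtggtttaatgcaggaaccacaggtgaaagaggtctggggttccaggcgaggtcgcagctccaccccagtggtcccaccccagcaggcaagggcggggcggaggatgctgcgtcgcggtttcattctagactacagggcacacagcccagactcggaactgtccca
Tnfrsf1a, chr6:125349473-125349772 (+ strand): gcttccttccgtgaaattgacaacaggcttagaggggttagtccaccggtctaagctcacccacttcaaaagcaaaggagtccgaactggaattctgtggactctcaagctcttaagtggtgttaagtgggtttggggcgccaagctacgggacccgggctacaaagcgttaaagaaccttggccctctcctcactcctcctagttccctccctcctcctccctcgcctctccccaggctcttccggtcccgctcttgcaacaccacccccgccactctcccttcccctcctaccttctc
Tnf held 1 NF-kB match, GGGTGTCCCC, which began 194 bases before the start, Ltb held GGAAAGTCCC at 87 bases before it, and Tnfrsf14 held GGGCCCTCCC at 148 bases before it. Ltb also held KLF matches that began 110 and 47 bases before the start. The start site used for Tnfrsf14 (154928077) is not the outer end of the annotated gene (154928620). Its window and its match thus lie inside the annotated gene. The windows of Tnfsf14, Tnfrsf13c and Tnfrsf1a held no match to any motif searched. Tnfsf8 (-2.47), Tnfrsf18 (-2.29) and Tnfsf10 (-2.27) moved more in Ediff cells than Tnfrsf1a (-1.66), and their windows are not printed. That of Tnfsf8 held 2 NF-kB matches and 1 KLF match, that of Tnfrsf18 held 1 of each, and that of Tnfsf10 held none. This form of the NF-kB consensus was found in 16 of the 34 family promoters (47.1%, 15 genes) and in 19.5% of all 32851 promoters of the same length. CCNCACCC was found in 10 of 34 (29.4%) and in 16.6% of all, and AGATAA, a motif of GATA factors, in 1 of 34 (2.94%) and in 11.2% of all. None of the motifs overlapped in the windows printed. Genes that fell (Tnf, Ltb) and a gene that rose (Tnfrsf14) both held an NF-kB match in the windows printed, and a match describes letters only.

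Signalling genes downstream of the receptors were read from a list of 50 genes, of which 49 matched and 47 were tested in Ediff cells. Of these, 13 were higher and 18 lower (66%, against 56.6% of all genes, 39.6% higher and 17% lower), with a median of 0.1 against 0.46 for all genes. Of 11 genes of death signalling, 3 were higher and 7 lower, and those lower included Mlkl, the effector of necroptosis (-2.73 ± 0.10), and Casp8 (-2.21 ± 0.09). Of 11 ubiquitin regulators 2 were higher and 3 lower. Tnfaip3 (A20), a brake on NF-kB signalling, fell by 3.33 ± 0.19 (adjusted p = 5.33e-05) and Birc3 fell by 1.51 ± 0.10. Of 15 NF-kB genes 4 were higher and 7 lower, among them Map3k14 (-2.31), the kinase of the alternative pathway, Tab3 (2.14) and the inhibitor Nfkbia (-1.79). Among 6 TRAF adaptors 3 were higher and 1 lower, with Traf4 (2.17) and Traf5 (1.15) higher and Traf3 (-2.22) lower. Relt (1.41), a TNF receptor relative outside the naming rule, was the 1 gene called of 4 such relatives tested. Under spike-in scaling 3 of the 47 were higher and 34 lower, and none of Mlkl, Casp8, Tnfaip3, Birc3, Map3k14, Tab3, Nfkbia, Traf3, Traf4, Traf5 and Relt changed sign, although Traf5 (0.21) was no longer called.

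Within the first set, Tnfrsf1a was 15.8-fold lower in EryCP than in Sca1hi cells and 8.74-fold lower than in CR Sca1lo cells. From Sca1hi to CR Sca1lo cells, 3 of 34 family genes tested were called, all lower (8.82%, against 3.66% of all 26449 genes, 1.24% higher and 2.42% lower). From CR Sca1lo to EryCP cells 6 of 34 were called, 2 higher and 4 lower (17.6%, against 5.06% of all genes, 2.75% higher and 2.31% lower). Between EryCP and Sca1hi cells 6 of 34 were called, again 2 higher and 4 lower (against 6.51% of all genes, 3.18% higher and 3.32% lower). These 3 comparisons share arrays and are not independent of each other. Normexp fitted on all spots left 0, 1 and 1 family calls in these comparisons and spike-in scaling 0, 2 and 3. The family medians were -0.1, -0.04 and -0.11, and those of all genes 0.03, -0.07 and -0.04.

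Tnfrsf1a was at 1.23, 0.87 and 0.81 in Sca1hi cells, at -0.04, 0.34 and 0.05 in CR Sca1lo cells and at -2.89, -3.31 and -2.83 in EryCP cells. The 3 fractions formed 3 separate bands. EryCP cells were 15.8-fold below Sca1hi cells (-3.98 ± 0.20, adjusted p = 2.29e-05; -4.11 to -3.76 within the 3 slides) and 8.74-fold below CR Sca1lo cells (-3.13 ± 0.20, adjusted p = 8.86e-05). The step from Sca1hi to CR Sca1lo cells, -0.85 ± 0.2, missed the threshold (adjusted p = 0.0627) and passed it with the slide as a block (adjusted p = 0.00334).

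Tnfrsf21 was at 1.44, 1.52 and 1.55 in Sca1hi cells, at 1.78, 1.62 and 1.74 in CR Sca1lo cells and at 0.37, 0.76 and 0.54 in EryCP cells. EryCP cells lay below both other fractions, by 1.92-fold (-0.94 ± 0.15, adjusted p = 0.00661) and 2.23-fold (-1.16 ± 0.15, adjusted p = 0.00277), and a second probe gave -1.36 for the latter. Both calls were lost with spike-in scaling (adjusted p = 0.117 and 0.05). Tnfrsf25, a receptor known from T cells, was at 0.13, 0.16 and 0.13 in Sca1hi cells, at -0.14, 0 and -0.31 in CR Sca1lo cells and at -0.75, -0.85 and -0.94 in EryCP cells. Its fall from CR Sca1lo cells was -0.70 ± 0.14 (adjusted p = 0.0246) and from Sca1hi cells -0.99 ± 0.14 (adjusted p = 0.00377), though a second probe gave -0.22 and -0.2. The call against CR Sca1lo cells was lost without CR Sca1lo replicate 1 or 2, any 1 of the EryCP arrays, or Sca1hi replicate 1 or 2 (-0.75 to -0.62, adjusted p = 0.0547 to 0.133). So 3 of the 5 death domain receptors were called lower in EryCP cells in both comparisons, while Fas and Tnfrsf10b were called in neither. Against CR Sca1lo cells Tnfrsf1a alone of the 3 was still called under spike-in scaling (Tnfrsf25 -0.72, adjusted p = 0.0806) and under normexp on all spots (Tnfrsf25 -0.69 and Tnfrsf21 -0.84, adjusted p = 0.524 for each). Against Sca1hi cells the calls of Tnfrsf25 (-0.91, adjusted p = 0.512) and Tnfrsf21 (-0.74, adjusted p = 0.562) were lost under normexp on all spots too.

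Tnf dipped in CR Sca1lo cells and was highest in EryCP cells. It was at 0.96, 0.93 and 0.72 in Sca1hi cells, at 0.19, -0.01 and 0.02 in CR Sca1lo cells and at 1.86, 1.43 and 1.51 in EryCP cells. The rise from CR Sca1lo to EryCP cells was 2.9-fold (1.54 ± 0.16, adjusted p = 0.00107; 1.41 to 1.68 within the slides). The fall from Sca1hi to CR Sca1lo cells was 1.74-fold (-0.80 ± 0.16, adjusted p = 0.0362), and EryCP cells were 1.66-fold above Sca1hi cells (0.74 ± 0.16, adjusted p = 0.0353). The fall was lost without any array other than EryCP replicate 1 or 2 (-0.88 to -0.75, adjusted p = 0.063 to 0.181). The last call was lost without any array other than EryCP replicate 2 (0.6 to 0.78, adjusted p = 0.0581 to 0.126). With the slide as a block the adjusted p-values of both were 0.00276 and 0.00262.

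Tnfsf8 was at 0.89, 0.95 and 0.89 in Sca1hi cells, at -0.14, -0.06 and 0.04 in CR Sca1lo cells and at 0.41, 0.73 and 0.78 in EryCP cells. CR Sca1lo cells were lowest on every array, 1.95-fold below Sca1hi cells (-0.96 ± 0.15, adjusted p = 0.0107) and 1.62-fold below EryCP cells (0.69 ± 0.15, adjusted p = 0.0348). The first call was lost without Sca1hi replicate 1 or 2 or CR Sca1lo replicate 1 or 2 (-0.97 to -0.92, adjusted p = 0.0514 to 0.0733). The second was lost without any array other than EryCP replicate 1 (0.62 to 0.74, adjusted p = 0.0597 to 0.161).

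Tnfrsf26 went from 0.16, 0.09 and 0.04 in Sca1hi cells to -0.52, -0.56 and -0.53 in CR Sca1lo cells and -0.97, -1 and -0.96 in EryCP cells. EryCP cells were 2.11-fold below Sca1hi cells (-1.08 ± 0.12, adjusted p = 0.00115), and the step from Sca1hi to CR Sca1lo cells was -0.64 ± 0.12 (adjusted p = 0.0251). The step from CR Sca1lo to EryCP cells, -0.44 ± 0.12, missed the threshold (adjusted p = 0.092) and passed it with the slide as a block (adjusted p = 0.00498). The step from Sca1hi cells was lost without any array other than EryCP replicate 2 (-0.66 to -0.6, adjusted p = 0.0547 to 0.138).

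The ligands Tnfsf10 and Tnfsf9 were each called once. Tnfsf10 was at -3.52, -3.56 and -3.48 in CR Sca1lo cells and at -4.52, -4.15 and -4.81 in EryCP cells, with no overlap and a fall of 1.97-fold (-0.98 ± 0.18, adjusted p = 0.0188). The call was lost with the deposited value table, quantile normalization, spike-in scaling or a trended robust variance model, and without EryCP replicate 1 or 3 or any 1 of the CR Sca1lo arrays (-1 to -0.82, adjusted p = 0.0629 to 0.0848). Tnfsf9 was above background on 2 of 3 Sca1hi arrays, at -5.45, -5.63 and -4.73, and at -3.41, -3.39 and -3.62 in EryCP cells, 3.49-fold higher (1.80 ± 0.40, adjusted p = 0.0359). Its call was lost without any 1 of the EryCP arrays, Sca1hi replicate 1 or 2, or CR Sca1lo replicate 3 (1.62 to 1.88, adjusted p = 0.062 to 0.158), and the difference was -0.56 with normexp fitted on all spots.

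**Figure D3:**
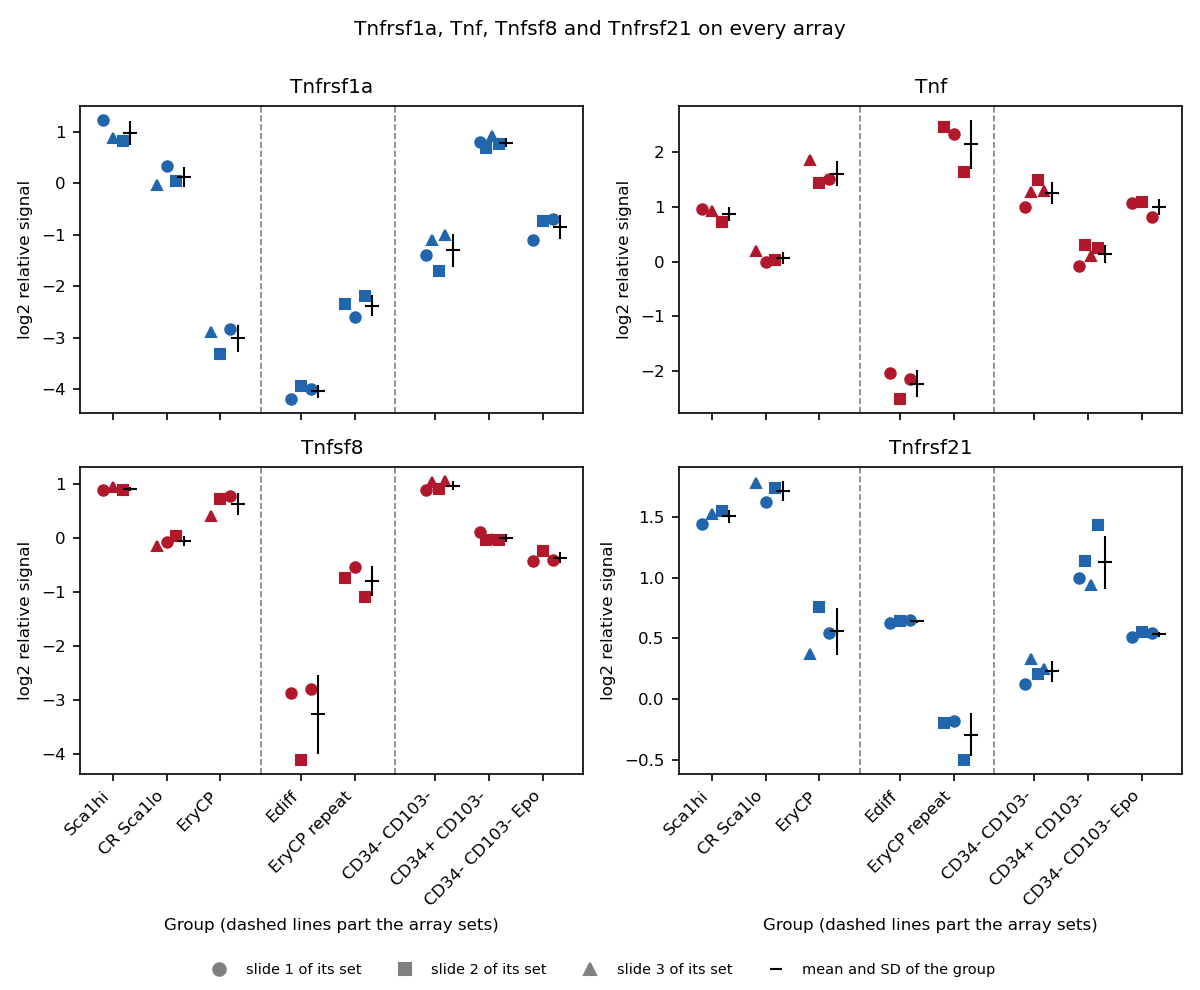
Log2 signal relative to the array's 75th percentile (vertical axes) of Tnfrsf1a, Tnf, Tnfsf8 and Tnfrsf21 on every array by group, with the symbol showing the slide, black bars the group mean and SD, and dashed lines between array sets. Tnfrsf1a is lower in EryCP cells than in Sca1hi and CR Sca1lo cells and lower in CD34- CD103- than in CD34+ CD103- cells, and Tnf runs the other way between CR Sca1lo and EryCP cells and between the CD34+ and CD34- fractions.

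Most of the remaining family genes varied more between slides than between fractions in the first set. Each of its 3 slides carried 1 array of each fraction, and 24 of the 39 genes (61.5%) had a larger share of their variance between slide means than between group means, against 72.2% of all genes. Fas was at -2.23, -1.67 and -1.05 in Sca1hi cells, at -1.8, -2.45 and -1.06 in CR Sca1lo cells and at -1.68, -1.02 and -2.48 in EryCP cells. Every fraction thus had 1 high array, and all 3 high arrays lay on 1 slide, so that slides held 98.3% of the variance of Fas and groups 0.787%. Fasl (97% between slides) and the decoy receptor Tnfrsf23 (98.6%) were alike in this. By contrast groups held 99.5% of the variance of Tnfrsf26, 98.8% of Tnfrsf1a, 95.9% of Tnfrsf21, 95.8% of Tnfrsf25, 95.6% of Tnf and 93.4% of Tnfsf8. The slide with the high Fas arrays had 91.3% to 93.8% of probes well above background. With the slide as a block, family calls rose from 3 to 7 between CR Sca1lo and Sca1hi cells, from 6 to 12 between EryCP and CR Sca1lo cells and from 6 to 11 between EryCP and Sca1hi cells. The gain was not particular to the family, since calls over all genes rose from 969 to 4734, from 1338 to 5380 and from 1721 to 5526. Among the family genes added were Tnfsf14, Tnfrsf12a and Tnfrsf14 in both comparisons with EryCP cells. In the second set 12 genes (30.8%) and in the third set 21 genes (53.8%) had the larger share between slides, against 31.6% and 57.1% of all genes.

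**Figure D4:**
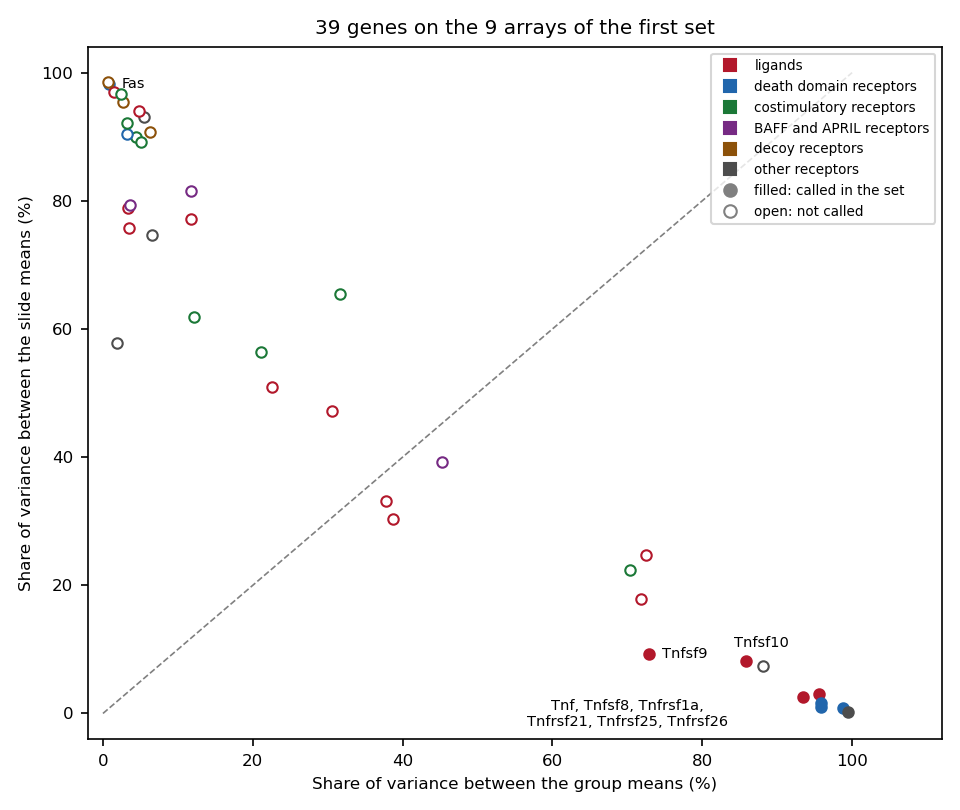
Share of each gene's variance between group means (horizontal axis, percent) and between slide means (vertical axis, percent) over the 9 arrays of the first set, for the 39 genes coloured by role, filled where the gene was called in that set. The 8 called genes lie at the lower right, where calls on the same group differences place them. Fas lies at the upper left with 98.3% between slides and 0.787% between groups.

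Of the 49 pathway genes tested in the first set, 1 was higher and 3 lower in CR Sca1lo than in Sca1hi cells (8.16%, against 3.66% of all genes), namely Traf4 (1.23), Traf5 (-1.47), Bcl3 (-1.28) and Relb (-1.22). In EryCP against CR Sca1lo cells 5 were higher and 2 lower (14.3%, against 5.06% of all genes). The NF-kB cofactor Bcl3 fell 8.75-fold (-3.13 ± 0.21, adjusted p = 0.000108), and Tnfaip3 (1.34 ± 0.16) and Birc3 (0.77 ± 0.16) rose. In EryCP against Sca1hi cells 5 were higher and 3 lower (16.3%, against 6.51% of all genes), with Bcl3 at -4.41 ± 0.21 and Tnfaip3 at 1.27 ± 0.16. Mast cell and basophil markers summed to 209 to 316 in Sca1hi cells, 168 to 238 in CR Sca1lo cells and 695 to 983 in EryCP cells, and their part in these differences was not tested.

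In the third set, CD34- CD103- cells differed from CD34+ CD103- cells in 9 of 37 family genes tested, 5 higher and 4 lower (24.3%, against 12.1% of all 27350 genes, 5.62% higher and 6.51% lower). Tnfrsf1a was lower in the CD34- fraction and Tnf, Tnfsf8 and Tnfsf9 were higher. The family median was 0 and that of all genes -0.06. Of 14 ligands 4 were higher and 2 lower, and of 5 death domain receptors 2 were lower.

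Tnfrsf1a was at 0.79, 0.69, 0.91 and 0.76 in CD34+ CD103- cells and at -1.39, -1.1, -1.71 and -1.01 in CD34- CD103- cells. The 2 fractions were well apart, by 4.26-fold (-2.09 ± 0.16, adjusted p = 8.3e-06; -2.44 to -1.97 within the 3 slides). Tnf was at -0.08, 0.3, 0.1 and 0.24 in CD34+ CD103- cells and at 0.99, 1.26, 1.48 and 1.29 in CD34- CD103- cells, 2.16-fold higher in the latter (1.11 ± 0.12, adjusted p = 0.000172). Receptor and ligand thus differed in opposite directions between the same fractions. Tnfrsf21 was at 1, 1.14, 0.94 and 1.43 in CD34+ CD103- cells and at 0.12, 0.33, 0.21 and 0.25 in CD34- CD103- cells, a fall of 1.87-fold (adjusted p = 0.000245), with -0.89 from a second probe.

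Tnfsf8 was at 0.11, -0.03, -0.02 and -0.03 in CD34+ CD103- cells and at 0.9, 1.05, 0.91 and 1.06 in CD34- CD103- cells. The fractions did not overlap, and the rise was 1.96-fold (0.97 ± 0.08, adjusted p = 1.76e-05). Tnfsf9 was at -4.69, -4.34, -4.41 and -4.62 against -3.64, -3.76, -3.72 and -3.91, 1.69-fold higher in CD34- CD103- cells (adjusted p = 0.00054). Tnfsf10 was at -3.66, -3.62, -3.7 and -3.9 against -4.27, -4.59, -4.58 and -4.16, 1.6-fold lower (adjusted p = 0.00774). Tnfsf9 and Tnfsf10 were dim but above background on every array of both fractions. Tnfrsf12a was at 0.21, 0.46, 0.14 and 0.18 against 0.74, 0.76, 0.86 and 0.68 (0.51 ± 0.09, adjusted p = 0.00306). Lta was at -4.59, -4.23, -4.46 and -4.16 against -3.93, -3.88, -3.79 and -3.86 (0.50 ± 0.11, adjusted p = 0.0124). Tnfsf14 was at 0.64, 0.55, 0.47 and 0.59 against 0.34, -0.01, 0.15 and 0.11 (-0.42 ± 0.09, adjusted p = 0.00933). In each of these 3 genes, named because they were called, the fractions did not overlap. With normexp fitted on all spots Tnfsf9 (0.14) and Lta (0.03) missed the threshold. With spike-in scaling Tnfrsf12a and Lta missed the threshold (0.3 and 0.28), and the split of calls became 3 higher and 6 lower, against 5 and 4 as reported. Over all genes the share of higher calls moved from 46.3% to 14%.

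Tnfsf12 was high on 1 slide of this set. It was at -1.45, 0.58, -1.65 and 0.58 in CD34- CD103- cells, at -2.42, -2.42, -0.27 and -2.55 in CD34+ CD103- cells and at -2.25, -2.34 and -2.21 in CD34- CD103- Epo cells. The 3 high arrays were the 3 of 1 slide, which carried no Epo array. The difference between the CD34- and CD34+ fractions, 1.43, was not called (adjusted p = 0.2) and passed with the slide as a block (adjusted p = 2.8e-05), as did Tnfrsf14 (0.66; adjusted p = 0.0917 without and 0.00273 with the block).

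Epo-driven differentiation of CD34- CD103- cells was accompanied by a fall in Tnfsf8 and little else in the family. Of 37 genes tested, 1 was higher and 1 lower (5.41%, against 2.57% of all genes, 0.746% higher and 1.83% lower). Tnfsf8 was at -0.43, -0.23 and -0.41 in Epo cells against 0.9, 1.05, 0.91 and 1.06 before, with no overlap and a fall of 2.52-fold (-1.33 ± 0.09, adjusted p = 1.02e-05; -1.32 and -1.13 within the 2 slides that held both groups). Tnfsf14 was at 0.52, 0.53 and 0.62 against 0.34, -0.01, 0.15 and 0.11, 1.33-fold higher (0.41 ± 0.09, adjusted p = 0.0475). That call was lost with the slide as a block (0.31, adjusted p = 0.0612), in 16 of the 21 alternative settings in all, and without any single array other than CD34- CD103- replicate 1 (0.36 to 0.43, adjusted p = 0.052 to 0.215). Tnfrsf1a was at -1.11, -0.74 and -0.69 in Epo cells and was not called. Tnfsf12 (-1.78, adjusted p = 0.217) passed with the slide as a block (adjusted p = 0.000982).

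Epo cells still differed from CD34+ CD103- cells in 7 of 37 genes, 3 higher and 4 lower (18.9%, against 5.24% of all genes, 2.65% higher and 2.58% lower). Tnfrsf1a was 3.1-fold lower (-1.63 ± 0.17, adjusted p = 0.000304), Tnfrsf21 1.51-fold lower (-0.59 ± 0.11, adjusted p = 0.0137) and Tnf, at 1.06, 1.09 and 0.82, 1.8-fold higher (0.84 ± 0.13, adjusted p = 0.00468). In Epo cells Tnfsf9 was at -4.16, -3.98 and -4.08, Tnfrsf12a at 0.56, 0.72 and 0.65 and Tnfrsf26 at -0.79, -0.65 and -0.86, the last against -0.42, -0.09, -0.18 and -0.42 in CD34+ CD103- cells. The differences of Tnfsf9 (0.44), Tnfrsf12a (0.40), Tnfsf8 (-0.36) and Tnfrsf26 (-0.49) passed with adjusted p-values of 0.0364 to 0.0476. Each of these 4 lost its call with no filter on dim probes and without several single arrays, where the values were 0.39 to 0.49, 0.36 to 0.44, -0.38 to -0.33 and -0.54 to -0.42, and Tnfsf8 also with the slide as a block (adjusted p = 0.0545). The count of calls fell to 2 without Epo replicate 1 or 3, to 3 without Epo replicate 2, CD34+ CD103- replicate 1, 3 or 4 or CD34- CD103- replicate 2, and to 4 without CD34- CD103- replicate 3 or 4. Tnfrsf21 also lost its call without any 1 of the Epo arrays (-0.6 to -0.58, adjusted p = 0.0504 to 0.0669). Spike-in scaling ended the call of Tnf (0.4, adjusted p = 0.11), brought Tnfrsf12a and Tnfsf9 to -0.05 and 0, and turned the split of calls to 0 higher and 12 lower. Over all genes it moved the share of higher calls from 50.7% to 1.75% and the median from 0.03 to -0.41. The 3 comparisons of this set share arrays.

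Of the 49 pathway genes, 6 were higher and 4 lower in CD34- CD103- than in CD34+ CD103- cells (20.4%, against 12.1% of all genes), among them Tnfaip3 (1.03 ± 0.23, adjusted p = 0.0135) and Bcl3 (-1.34 ± 0.14, adjusted p = 0.000131). No pathway gene was called between Epo cells and CD34- CD103- cells. Against CD34+ CD103- cells, Epo cells had 5 higher and 2 lower (14.3%, against 5.24% of all genes), again with Tnfaip3 (1.18) and Bcl3 (-1.29). Mast cell and basophil markers summed to 832 to 879 in CD34- CD103- cells, 257 to 298 in CD34+ CD103- cells and 388 to 399 in Epo cells, and their part in these results was not tested. Erythroid markers summed to 71.1 to 92.4 in the Epo cells, against 46.9 to 69.8 in CD34- CD103- cells. A sum follows its brightest probes, and gene by gene the markers did not rise. Of the 9 tested between these groups, none was called higher and 1 was called lower, with a median of -0.51.

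The 2 Epo-driven differentiations were then compared directly, as the difference between the Ediff response and the response of CD34- CD103- cells, in 1 fit over 13 arrays. Of 35 genes tested in both sets 17 differed, 5 higher and 12 lower in the Ediff response (48.6%, against 41.5% of all 24482 genes, 25.4% higher and 16.2% lower). The 2 responses differ in starting fraction, in sorting and in array set, and these cannot be told apart. Of 13 ligands 8 were lower and none higher, with a median of -1.14 against 0.34 for all genes. With normexp fitted without spots of outlying background 12 genes differed, 5 higher and 7 lower, and only Tnf, Tnfsf14 and Ltb of the ligands. Under that correction Tnfsf10 (-0.3), Tnfsf4 (-0.07) and Tnfsf9 (0.07), which were above background on none, none and 1 of the Ediff arrays, lost their calls, as did Lta (-0.24) and Tnfsf8 (-0.28). With the slide as a block 23 genes differed, 10 higher and 13 lower, among them Tnfsf12 (-1.98, adjusted p = 1.32e-05), which was not called without the block (-0.92, adjusted p = 0.32). Without Ediff replicate 2 there were 22, 10 higher and 12 lower. Calls over all genes rose as well, from 10172 to 12582 with the block and to 12610 without that array.

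Tnf changed by -4.37 in the Ediff response and by -0.27 in the other, a difference of -4.10 ± 0.29 (adjusted p = 3.41e-07). Tnfsf14 changed by -3.31 and 0.41 (difference -3.72 ± 0.18, adjusted p = 1.33e-08). Ltb changed by -3.37 and 0.15 (difference -3.52 ± 0.16, adjusted p = 7.52e-09). These 3 ligands fell in Ediff cells and moved little with Epo in CD34- CD103- cells. Tnfrsf14 (3.41 and -0.07, difference 3.47 ± 0.24, adjusted p = 2.82e-07) differed the other way. Tnfrsf13c was also called higher in the Ediff response, but its value there rests on EryCP repeat readings below background, and the difference was 0.89 with normexp fitted without spots of outlying background. Tnfrsf18 (difference -2.62 ± 0.14) and Tnfrsf1a (difference -2.13 ± 0.26) were lower in the Ediff response. Tnfsf8 was lower after both differentiations, at -2.47 and -1.33, and the difference between them (-1.14 ± 0.39, adjusted p = 0.0345) was lost without any 1 of 7 arrays, the 3 Epo arrays, CD34- CD103- replicates 1 and 3 and EryCP repeat replicates 1 and 2 (-1.17 to -1.01, adjusted p = 0.0564 to 0.0712) and with the deposited value table (-0.55, adjusted p = 0.0954).

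**Figure D5:**
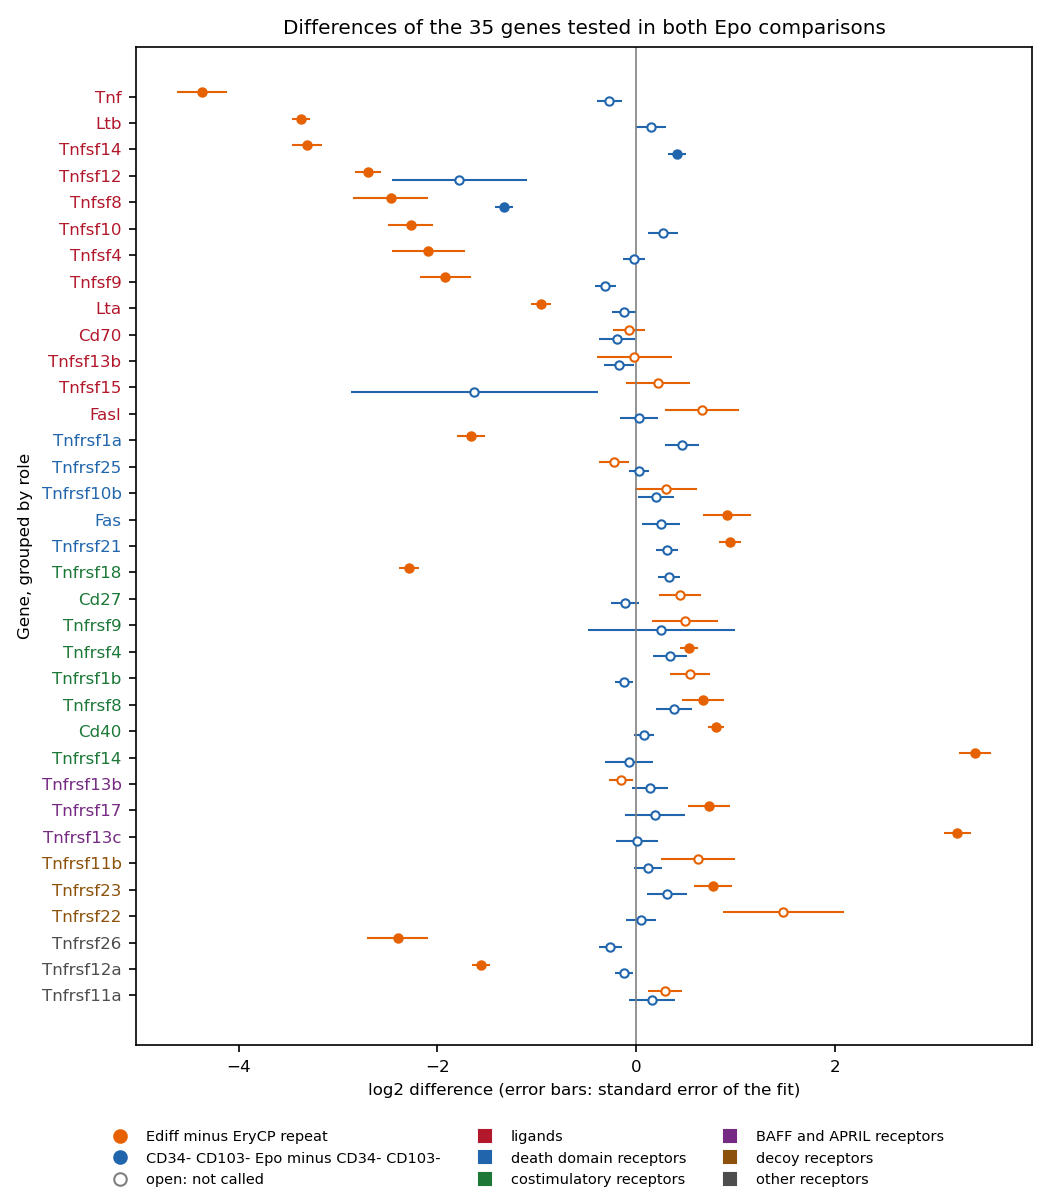
Log2 differences with standard errors (horizontal axis) of the 35 genes tested in both Epo comparisons (vertical axis, by role), Ediff minus EryCP repeat in orange and CD34- CD103- Epo minus CD34- CD103- in blue, filled where called. The orange points of Tnf, Ltb and Tnfsf14 lie between -4.37 and -3.31 and their blue points between -0.27 and 0.41, and Tnfsf8 is called on the lower side in both.

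The 16 genes called in no comparison within a set were 6 ligands and 10 receptors. The ligands were Cd70, Fasl, Tnfsf11, Tnfsf13b (BAFF), Tnfsf15 and Tnfsf18 (GITR ligand). The receptors were Cd27, Ltbr, Tnfrsf10b, Tnfrsf11a (RANK), Tnfrsf11b (osteoprotegerin, a soluble decoy of RANK ligand), Tnfrsf13b (TACI), Tnfrsf19, Tnfrsf1b (TNFR2), Tnfrsf22 and Tnfrsf9 (4-1BB). Of these, 9 were well above background on all 26 arrays. Tnfrsf1b, the second receptor of Tnf, ranged from -1.67 to -0.17 over all arrays, Cd70 from -3.72 to -2.26 and Cd27 from -5.33 to -3.16. A second probe of Tnfrsf1b gave -1.46 between EryCP and Sca1hi cells, where the probe used gave -0.16. Single arrays stood far below the rest for Tnfsf15, at -8.05 on CD34- CD103- Epo replicate 2 against -1.93 and -1.62, and for Tnfrsf9, at -6.44 on CD34+ CD103- replicate 2, and both readings were not well above background.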

How the data were processed

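Total RNA of 26 EML cell samples was labelled with Cy3 and hybridised to Agilent arrays, per the labels' protocols. Per the file headers, scanner images were read with Agilent Feature Extraction 10.1.1.1 (the first and the second set) or 10.7.1.1 (the third), and the deposited intensity values are its processed signals, already background-subtracted, with flags per spot. A deposited series table of log2 values of the same probes served as an alternative, and its normalization is not given in the sources used here. Genes were named through RefSeq accessions (GRCm38.p6) or else by the symbol in the files, and 27071 of 41174 probes had a name.

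Control spots and spots flagged as outliers (48 to 446 an array) were left out, log2 signals were centred on the array's 75th percentile, and spots of a probe were averaged. The probe with the highest mean stood for its gene. Testing in a set required a probe well above background throughout 1 or more of its groups. Each set was fitted over all its groups with limma 3.58.1 in R 4.3.3 (lmFit, eBayes, 2-sided), and genes with a Benjamini-Hochberg adjusted p under 0.05 over all genes tested were called. Precision is limited by the 3 or 4 arrays of each group. The script was tested on simulated data. Alternatives were the slide as a block, quantile normalization, spike-in scaling, normexp (offset 50), the deposited table, other probe filters and choices, a trended robust variance and leaving out each array. A normexp fit without spots of outlying background was added after seeing the data.

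The genes, role lists and pathway lists were chosen with earlier results of these data known. Every family gene could be named. Genes called at least once are given on the arrays of the groups that the call compared. Exceptions are Tnfrsf21 in Epo cells, which is not listed by array, and Tnfsf10, Tnfsf12 and Tnfsf4 in Ediff cells, which are given as ranges. Of each pathway list at most 3 called genes are named per comparison, those of largest difference, except that 1 gene is not reported here. Figures were drawn with matplotlib.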

Additional observations from a re-analysis of the deposited data

Results flagged for a closer look

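In 6 of 74 groups of 4 arrays tested, 1 array lay further from its neighbour than Dixon's 95% limit allows, and chance alone flags about 1 group in 20. In CD34+ CD103- cells these were Cd40 on replicate 2 (-4.56), Tnfrsf10b on replicate 3 (-2.95), Tnfsf12 on replicate 3 (-0.27) and Tnfsf8 on replicate 1 (0.11). In CD34- CD103- cells they were Tnfrsf19 (-3.66) and Tnfrsf1b (-1.3), both on replicate 1. The Tnfsf12 array is the 1 CD34+ CD103- array on the slide where both CD34- CD103- arrays were high as well. Without CD34+ CD103- replicate 1 the fall of Tnfsf8 between Epo and CD34+ CD103- cells was -0.33 and was not called.

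The responses in the 2 Epo-driven differentiations, of the EryCP and CD34- CD103- fractions, differed for 17 of 35 genes by a direct test of the difference (limma, adjusted p under 0.05). That is 48.6%, near the 41.5% of all genes tested. Starting fraction, sorting and array set also differ between the responses and cannot be told apart. The Ediff response was lower for Tnf (-4.1), Tnfsf14 (-3.72), Ltb (-3.52), Tnfrsf18 (-2.62), Tnfsf10 (-2.55), Tnfrsf26 (-2.15), Tnfrsf1a (-2.13), Tnfsf4 (-2.06), Tnfsf9 (-1.61), Tnfrsf12a (-1.44), Tnfsf8 (-1.14) and Lta (-0.84). It was higher for Tnfrsf14 (3.47), Tnfrsf13c (3.22), Cd40 (0.72), Tnfrsf1b (0.66) and Tnfrsf21 (0.63). Tnfsf10 and Tnfsf4 were above background on no Ediff array and Tnfsf9 on 1 of 3, so their values rest on readings below background. With the normexp fit without outlying background they were -0.3, -0.07 and 0.07, with all spots 0.06, 0.22 and 0.43, and none was called in either. Tnfrsf13c was above background on no EryCP repeat array, and its value was 0.89 with the first of these fits. A second probe of Tnfrsf1b, well above background on all of these arrays, gave -0.23 in Ediff cells and 0.15 with Epo, against 0.54 and -0.12 for the probe used, so its difference points the other way. The call of Tnfrsf1b was lost without Ediff replicate 1 or 3, EryCP repeat replicate 3 or CD34- CD103- Epo replicate 1 or 3, at 0.54 to 0.66 (adjusted p = 0.0507 to 0.0682).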

How the results depend on the processing

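The calls that held under every alternative run were Tnfrsf1a in EryCP cells against both other fractions (1 of 6 calls each), Tnfsf8 with Epo (1 of 2), Tnfrsf1a between Epo and CD34+ CD103- cells (1 of 7), 6 of 9 between CD34- CD103- and CD34+ CD103- cells, and Tnf, Tnfsf14, Tnfrsf14 and Tnfrsf18 in the difference of responses (4 of 17). None of the 3 calls between CR Sca1lo and Sca1hi cells and none of the 22 in Ediff cells did. Normexp on all spots left 0 of 22 calls in Ediff cells, 4 of 17 in the difference of responses, 0 of 3 between CR Sca1lo and Sca1hi cells, 1 of 6 in each EryCP comparison, 1 of 2 with Epo and 4 of 7 between Epo and CD34+ CD103- cells. On the arrays it compressed most, the 5th percentile of its log2 values lay 0.03 below the median, against at least 4.25 for the processed signal. Spike-in scaling gave 12 calls between Epo and CD34+ CD103- cells, 1 with Epo, 0 between CR Sca1lo and Sca1hi cells, 2 between EryCP and CR Sca1lo cells and 3 between EryCP and Sca1hi cells. With no filter the counts were 3 between Epo and CD34+ CD103- cells, 1 with Epo and 1 between CR Sca1lo and Sca1hi cells. The deposited table and quantile normalization each gave 1 with Epo. The slide block gave 7, 12 and 11 in the first set, where calls over all genes rose to 4734, 5380 and 5526. Leaving out 1 array gave 0 to 3 calls between CR Sca1lo and Sca1hi cells, 3 to 5 and 4 to 6 for EryCP against CR Sca1lo and Sca1hi cells, 18 to 29 in Ediff cells, 9 to 11 between CD34- CD103- and CD34+ CD103- cells, 1 to 2 with Epo, 2 to 6 between Epo and CD34+ CD103- cells and 15 to 22 for the difference of responses. The count between CR Sca1lo and Sca1hi cells was 0 without CR Sca1lo replicate 1 or 2 or Sca1hi replicate 1 or 2, and 1 without CR Sca1lo, EryCP or Sca1hi replicate 3. That between EryCP and CR Sca1lo cells was 3 without CR Sca1lo replicate 1 or 2 or EryCP replicate 3.

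Signs turned as follows. Spike-in scaling gave Cd40 -0.15, Fas -0.04, Tnfrsf11a -0.65, Tnfrsf17 -0.21, Tnfrsf21 -0.01, Tnfrsf23 -0.18, Tnfrsf4 -0.42 and Tnfrsf8 -0.27 in Ediff cells, Cd40 0, Tnfrsf1b -0.06 and Tnfrsf21 -0.09 in the difference of responses, and Tnfrsf12a -0.05 and Tnfsf9 0 between Epo and CD34+ CD103- cells. This scaling moved the median of all genes from 0.46 to -0.49 in Ediff cells, from -0.06 to -0.27 between CD34- CD103- and CD34+ CD103- cells, from 0.09 to -0.14 with Epo and from 0.34 to -0.38 in the difference of responses. Normexp on all spots gave Lta 0.25, Tnfsf10 0.46, Tnfsf12 0.39, Tnfsf4 0.38 and Tnfsf9 0.4 in Ediff cells, Lta 0.13, Tnfsf10 0.06, Tnfsf4 0.22, Tnfsf8 0.46 and Tnfsf9 0.43 in the difference of responses, and Tnfsf9 -0.56 between EryCP and Sca1hi cells. Normexp without outlying background, added after seeing the data, gave Tnfsf10 0.06, Tnfsf12 0.02, Tnfsf13b 0.38 and Tnfsf4 0.04 in Ediff cells and Tnfsf9 0.07 in the difference of responses. The cause of these changes was not tested. No paired analysis was possible because the labels carry no replicate numbers shared between groups; the slide, known from the array files, served as a block in its place.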
